A study of Mus musculus with 7 samples.

Results

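The chromatin modifiers and remodellers were followed here as a list of 46 named genes, grouped by the complex or enzyme class their proteins belong to. A gene was taken where the platform annotation gave a probe set that gene's symbol and no other, and where several were available the one with the highest mean stood for the gene. By this rule 42 of the 46 genes were measured, among 12393 genes on the array. Kdm6b, Ep300, Hmga1 and Setd8 had no probe set under the listed symbol and are not described further, except that the gene once called Setd8 is given apart under its present symbol, Kmt5a.

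The cells were primary keratinocytes of the mouse, which form the layers of the epidermis, collected 48 h after transient transfection. The compared groups were 5 arrays of cells given small interfering RNA (siRNA) against Trp63 (replicates 1, 2, 3, 4 and 7) and 2 arrays of cells given a non-specific siRNA (replicates 5 and 6). Trp63 is the gene of p63, a relative of p53 that stratified epithelia need. The labels give neither the age or strain of the mice nor the siRNA sequence, nor whether replicates came from separate cultures, and the groups have no replicate number in common. The p-values therefore measure only the spread between these arrays, which may be technical.

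Chromatin regulators set which stretches of DNA a cell can read. DNA methyltransferases and the Polycomb complexes write marks linked with silent genes, histone deacetylases remove acetyl groups that acetyltransferases add, and remodellers such as the SWI/SNF (BAF) and NuRD complexes use ATP to move or evict nucleosomes. In mouse epidermis, Polycomb proteins, Hdac1 with Hdac2, and the SWI/SNF ATPase Smarca4 are known to act in progenitor cells and in barrier formation, and Satb1 and Smarca4 have been described as p63 targets there.

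Each value is the deposited probe set intensity on a linear scale. A difference is that of the group means of log2(intensity + 16), Trp63 siRNA minus control siRNA, with its standard error (SE) from limma. A gene is called higher or lower, or said to have risen or fallen, where limma's Benjamini-Hochberg adjusted p over all 22626 probe sets tested was under 0.05. Each probe set has its own response, so a brighter probe set does not mean a more abundant transcript, and bright and dim refer to the signal alone.

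Trp63 itself averaged 503 ± 31.1 with Trp63 siRNA (SD, n = 5) against 1565 ± 167 with control siRNA (SD, n = 2), a difference of -1.61 (SE 0.088, limma adjusted p = 1.0e-05). Its 2 other probe sets, both dimmer, were called lower too, but by only -0.49 and -0.54 (limma adjusted p = 0.00228 and 0.000339). The median intensity lay between 207 and 214 on the 7 arrays. Of 9 measured keratinocyte markers, 1 was called higher and 8 lower, and their summed intensity was 41541 to 44862 with Trp63 siRNA and 53745 to 57035 with control siRNA. Krt14 and Krt5 had the brightest probe sets, at means of 14825 and 11602 with Trp63 siRNA against 17063 and 14460 with control siRNA. Among the markers of other cells, 9 melanocyte genes summed to 7112 to 12379 with Trp63 siRNA and 6962 to 10461 with control siRNA, with none called, so melanocyte transcripts were present in both groups. Dct (3136 against 3101) and Pmel (2127 against 1872) had the brightest probe sets of them. Of 10 fibroblast markers 2 were called higher (sums 1886 to 2183 against 1563 to 1826), of 10 immune markers 1 was higher and 1 lower (1734 to 1927 against 1798 to 1872), and none of 5 endothelial markers was called (559 to 629 against 593 to 650). The ratio of 3′ to 5′ control probe sets, a sign of RNA quality, also separated the groups. Its log2 value for Gapdh was -0.144 to -0.0920 with Trp63 siRNA and -0.0287 to -0.0247 with control siRNA, and for beta-actin 0.186 to 0.317 against 0.381 to 0.439 (exact two-sided permutation p = 0.0476 each, the smallest that the 21 splits of these arrays allow). The part of any of these in the differences below was not tested.

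Replicate 1 of the Trp63 siRNA arrays stood apart. It was an isolated lowest or highest of the 5 silenced arrays in 1481 probe sets, against 391 for replicate 2 and 91, 94 and 96 for replicates 3, 4 and 7. Results that rest on it are given with and without it.

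Of the 42 chromatin genes, 8 were called, which is 19.0%, and 16.6% of all 12393 genes were called. Kat2b and Dnmt3a rose, and Hmgb2, Jarid2, Smarca2, Hdac2, Ctcf and Hmgn1 fell. The share called higher was 4.76% of the chromatin genes, where 8.03% of all genes were, and the share called lower was 14.3%, where 8.57% of all genes were. The count of called genes was thus close to the background, and most of the list did not pass the test. Before adjustment 12 of the 42 had a limma p under 0.05, as had 31.8% of all genes. Of these genes 38 were brighter than the median probe set, and among all genes that bright 23.1% were called, 12.1% higher and 11.01% lower.

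The differences were small. The median difference over the 42 genes was -0.08, against -0.04 over all genes, and the median size of the difference was 0.125 against 0.0975 over all genes and 0.150 over the brighter ones. The differences ran from -0.62 for Hmgb2 to 0.74 for Kat2b. None reached a size of 1, which 186 genes on the array (1.501%) did. The 5 silenced arrays all lay above both controls in 6 chromatin genes and all below both in 11. Of all genes 14.3% lay above in this way and 24.0% below, together 38.3%, against 40.5% of the chromatin genes.

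**Figure D1:**
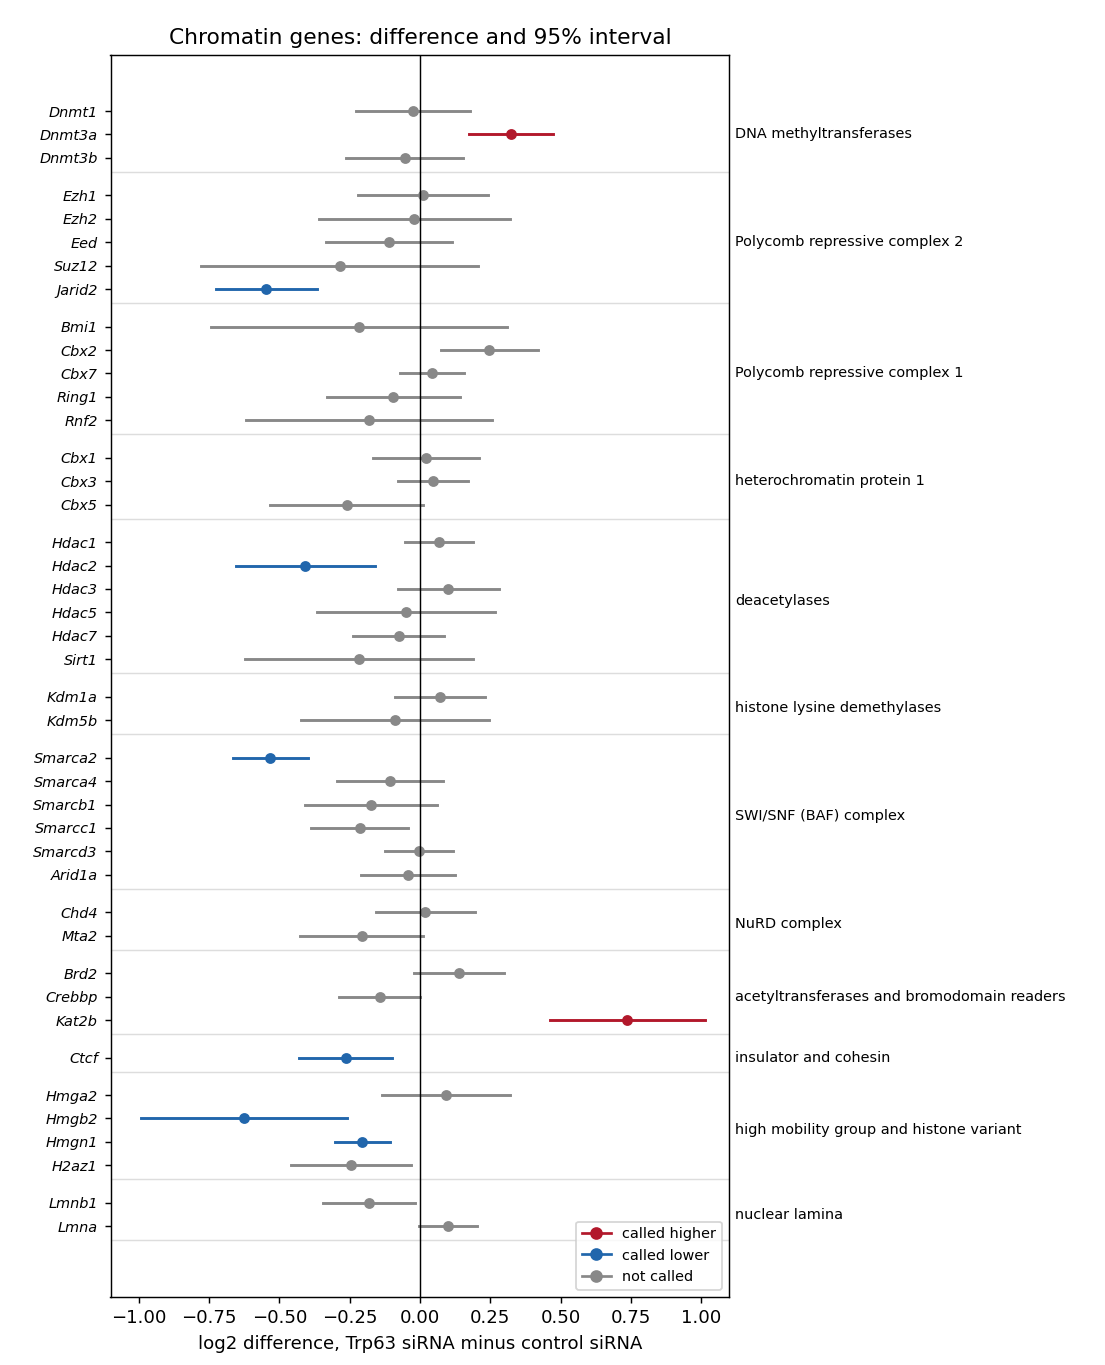
Difference between groups for each of the 42 measured chromatin genes (log2, Trp63 siRNA minus control siRNA, n = 5 and n = 2), with bars for limma's 95% confidence interval and the genes ordered by complex. Red and blue mark the 2 genes called higher and the 6 called lower; the intervals of Suz12, Bmi1, Rnf2 and Sirt1 are among the widest.

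Among the acetyltransferases and bromodomain readers, Kat2b gave the largest difference of the list. It encodes PCAF, a histone acetyltransferase that also acetylates p53. Kat2b read 593, 844, 800, 775 and 758 in replicates 1, 2, 3, 4 and 7 with Trp63 siRNA, against 437 and 448 in replicates 5 and 6 with control siRNA. Every silenced array lay above both controls, and replicate 1 lay below the other 4 silenced arrays. The means were 754 ± 95.4 (SD, n = 5) and 443 ± 7.93 (SD, n = 2), a 1.67-fold rise on the log2(intensity + 16) scale (difference 0.74, SE 0.12, limma adjusted p = 0.00376). Without replicate 1 the difference was 0.82 (adjusted p = 4.0e-05), and the call held when any single array was left out, with adjusted p up to 0.0441. Its other, dimmer probe set also had no overlap between groups, with a difference of 0.19 that did not pass (adjusted p = 0.120).

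The other members of this class did not pass. Crebbp, the acetyltransferase CBP, averaged 233 ± 12.0 with Trp63 siRNA and 259 ± 1.86 with control siRNA (difference -0.14, 95% interval -0.29 to 0.0021, adjusted p = 0.169). Brd2, a reader of acetylated histones, averaged 1160 ± 64.4 against 1050 ± 22.8 (difference 0.14, interval -0.02 to 0.30, adjusted p = 0.220). In both genes the groups did not overlap, Crebbp below and Brd2 above the controls.

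Dnmt3a was the 1 DNA methyltransferase that changed. It encodes a de novo enzyme, which methylates DNA that carries no methyl group yet. Dnmt3a read 362, 360, 332, 365 and 370 with Trp63 siRNA, against 277 and 288 with control siRNA. The silenced arrays lay close together and above both controls. The difference was 0.32, or 1.25-fold (SE 0.066, limma adjusted p = 0.0103). A further probe set of Dnmt3a gave 271, 253, 237, 258 and 251 against 192 and 204, and was called as well (0.34, adjusted p = 0.00731). Its 3 dimmest probe sets were not called, with 1 of them of the opposite sign. The call needed both controls, since the adjusted p was 0.0933 when replicate 5 was dropped and 0.0635 when replicate 6 was.

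The maintenance enzyme Dnmt1, which copies methylation after replication, averaged 701 ± 53.4 with Trp63 siRNA and 712 ± 56.5 with control siRNA. Its difference was -0.02, with a 95% interval of -0.23 to 0.18 (adjusted p = 0.880). Dnmt3b, the other de novo enzyme, differed by -0.05 (interval -0.26 to 0.15, adjusted p = 0.726). The log2 ratio of Dnmt3a to Dnmt3b within an array was 0.38 higher with Trp63 siRNA, and all 5 silenced arrays lay above both controls. This is 1 of 8 ratios of related genes that were computed, chosen after the values were seen and given without a test. Silenced arrays lay below both controls in 3 of the 8, above both in 2, and overlapped them in 3. No share over other pairs of genes was computed, and each ratio only restates the values of its genes. The other ratio above both controls was Lmna to Lmnb1 (0.28), and the other 3 probe sets of Lmna had the opposite sign. The overlapping ratios were Ezh1 to Ezh2 (0.03), Hdac5 to Hdac7 (0.03) and Cbx2 to Cbx7 (0.20).

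Polycomb repressive complex 2 methylates lysine 27 of histone H3. Its core subunits Ezh2, Eed and Suz12 did not pass, while Jarid2, a DNA-binding partner that helps bring the complex to its targets, fell. Jarid2 read 340, 363, 324, 361 and 355 with Trp63 siRNA, against 480 and 555 with control siRNA. The 5 silenced arrays spanned a narrow range and all lay below both controls. The means were 349 ± 16.6 and 517 ± 53.04 (difference -0.55, SE 0.079, 1.46-fold lower, limma adjusted p = 0.00197). All 3 probe sets of Jarid2 were called lower, the other two by -0.50 and -0.30 (adjusted p = 0.000926 and 0.0215). Jarid2 kept its call in each of the 19 alternative settings run for it.

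Ezh2, the main methyltransferase of the complex in dividing progenitors, had means of 571 ± 91.4 with Trp63 siRNA and 575 ± 72.0 with control siRNA. Its difference was -0.02, with a 95% interval of -0.36 to 0.32 (adjusted p = 0.944). Ezh1, its relative in cells that divide less, differed by 0.01 (adjusted p = 0.947), although its second, dim probe set was called higher (131 to 140 against 121 in both controls, difference 0.15, adjusted p = 0.0297). Eed, which binds the methylated lysine, differed by -0.11 (adjusted p = 0.489).

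Suz12, a scaffold subunit, read 331, 546, 610, 621 and 604 with Trp63 siRNA, against 609 and 690 with control siRNA. Only replicate 1 was far below the controls, at 55.5% of the mean of the other silenced arrays. The difference of -0.29 (adjusted p = 0.411) was -0.12 without it (adjusted p = 0.268). The next brightest Suz12 probe sets showed the same array apart, at 227 against 440 to 537 and at 153 against 279 to 337 in the other silenced arrays.

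Polycomb repressive complex 1 places ubiquitin on histone H2A through the ring finger proteins Ring1 and Rnf2, with Bmi1 as a partner and Cbx proteins as readers of the methyl mark. None of its 5 measured members was called. Cbx2 had the smallest p of them, with 351, 342, 319, 314 and 304 in silenced arrays against 258 and 286 in controls. The groups did not overlap, but the difference of 0.25 (SE 0.076) just missed the threshold (limma adjusted p = 0.0575). Cbx2 passed in 6 of its 19 alternative settings, among them the fit without replicate 1 (0.0418) and the melanocyte block described below (0.0296), and its second probe set leaned the same way (0.12, adjusted p = 0.0994). Cbx7, a dim probe set, differed by 0.04 and Ring1 by -0.09 (adjusted p = 0.603 and 0.580).

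Bmi1 and Rnf2 again had 1 array apart. Bmi1 read 254, 438, 496, 510 and 488 with Trp63 siRNA, against 469 and 525 with control siRNA. Rnf2 read 379, 607, 662, 643 and 633, against 618 and 690. Without replicate 1 the difference of Bmi1 was -0.04 in place of -0.22, and that of Rnf2 was -0.04 in place of -0.18, so that in the other 4 arrays both genes sat at the level of the controls. The second Bmi1 probe set was also lowest in replicate 1, at 105 against 171 to 201 in the other silenced arrays.

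**Figure D2:**
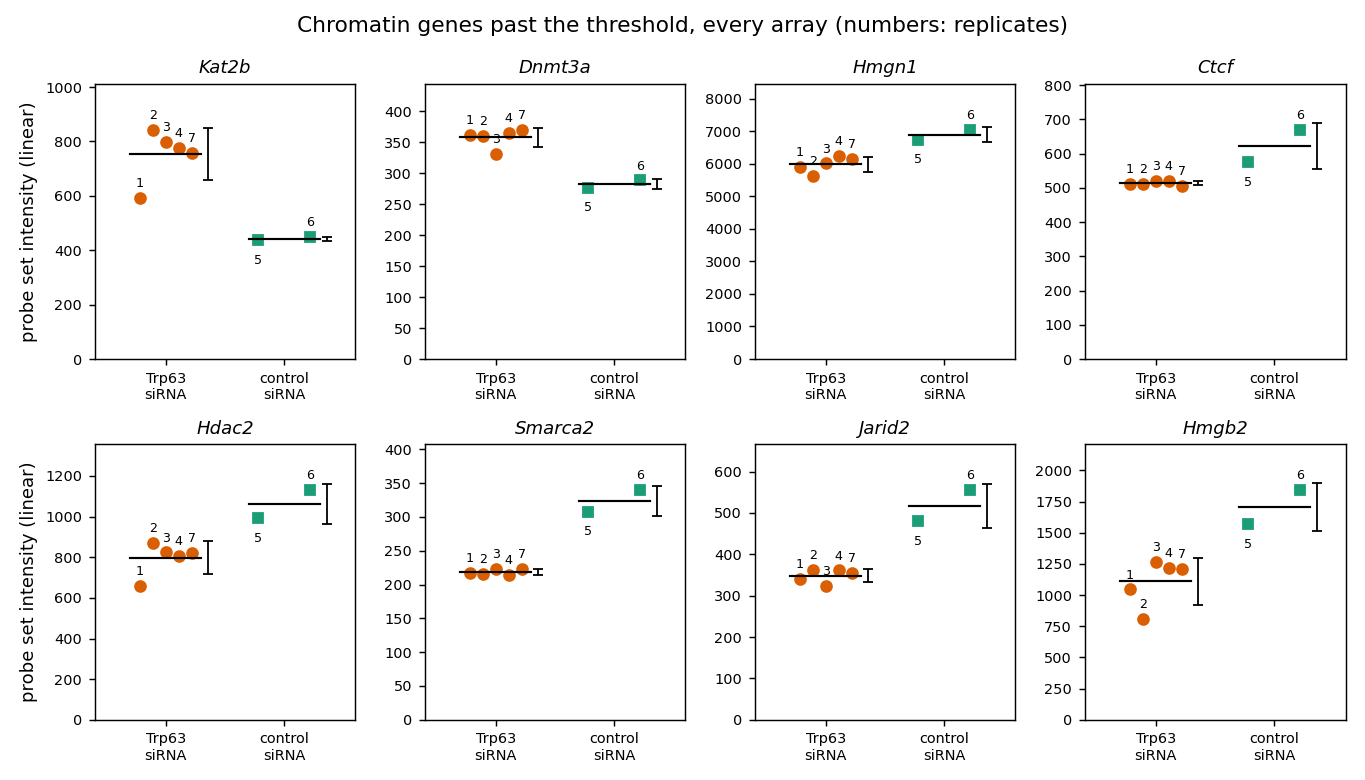
Intensity (linear axis from 0) of the 8 called chromatin genes in each array, numbered by replicate, with the group mean as a line and the SD as a bar beside it (Trp63 siRNA n = 5, control siRNA n = 2). No gene's groups overlap, and replicate 1 lies below the other silenced arrays for Kat2b and Hdac2.

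The SWI/SNF or BAF complex contains 1 of 2 ATPases, Smarca4 (BRG1) or Smarca2 (BRM), and a set of core and accessory subunits. Smarca2 read 217, 216, 222, 214 and 224 with Trp63 siRNA, against 307 and 339 with control siRNA. Its silenced arrays differed little among themselves and lay far below both controls. The means were 218 ± 4.25 and 323 ± 22.7 (difference -0.53, SE 0.059, 1.45-fold lower, limma adjusted p = 0.000469). It kept its call in all 19 alternatives run for it. The dimmer probe set of Smarca2 had groups that did not overlap, at 171 to 173 against 180 and 187, with a difference of -0.09 that did not pass (adjusted p = 0.207).

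Smarca4 averaged 1097 ± 84.3 with Trp63 siRNA and 1180 ± 38.6 with control siRNA, a difference of -0.11 with an interval of -0.29 to 0.08 (adjusted p = 0.423). The log2 ratio of Smarca2 to Smarca4 within an array was -2.39 to -2.08 with Trp63 siRNA and -1.92 and -1.72 with control siRNA. The ratio was thus 0.42 lower on the log2 scale in the silenced cells, with no overlap. It restates the values of Smarca2 and Smarca4 and is no separate result. The scaffold subunit Smarcc1 had all silenced arrays below both controls at both its probe sets, with differences of -0.21 and -0.20 that did not pass (adjusted p = 0.0934 and 0.0723). The core subunit Smarcb1 differed by -0.17 (adjusted p = 0.297), and without replicate 1 it was called lower (-0.23, adjusted p = 0.0449). Smarcb1 passed in only 1 of its 19 alternatives, and its second probe set did not pass without replicate 1 (limma adjusted p = 0.108). The DNA-binding subunit Arid1a differed by -0.04 (adjusted p = 0.738), and the muscle-linked Smarcd3 was dim, at about 111 in both groups.

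Class I histone deacetylases Hdac1 and Hdac2 are near relatives that share complexes and stand in for each other in epidermis. Hdac2 read 658, 872, 824, 807 and 822 with Trp63 siRNA, against 991 and 1130 with control siRNA. All 5 silenced arrays were below both controls, with replicate 1 the lowest. Hdac2 fell by 0.41 on the log2 scale (SE 0.11, limma adjusted p = 0.0342), and by 0.34 without replicate 1 (adjusted p = 0.00673). The call was lost when silenced replicate 3, 4 or 7 or either control was left out, with adjusted p from 0.0552 to 0.237. Hdac2 had 1 probe set only.

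Hdac1 read 1656, 1604, 1579, 1581 and 1604 with Trp63 siRNA and 1556 and 1507 with control siRNA. It lay slightly above the controls in every silenced array, with a difference of 0.07 that did not pass (interval -0.05 to 0.19, adjusted p = 0.437). The log2 ratio of Hdac2 to Hdac1 was -1.31 to -0.87 in silenced arrays and -0.64 and -0.41 in controls, 0.47 lower with no overlap. This ratio likewise restates the values of Hdac2 and Hdac1. Of the other deacetylases, Hdac3 of the nuclear corepressor complexes differed by 0.10 (adjusted p = 0.431). The class IIa members Hdac5 and Hdac7 differed by -0.05 and -0.08 (adjusted p = 0.843 and 0.514). The NAD-dependent Sirt1 read 143, 210, 249, 234 and 241 against 231 and 267, and its difference of -0.22 (adjusted p = 0.450) was -0.09 without replicate 1.

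**Figure D3:**
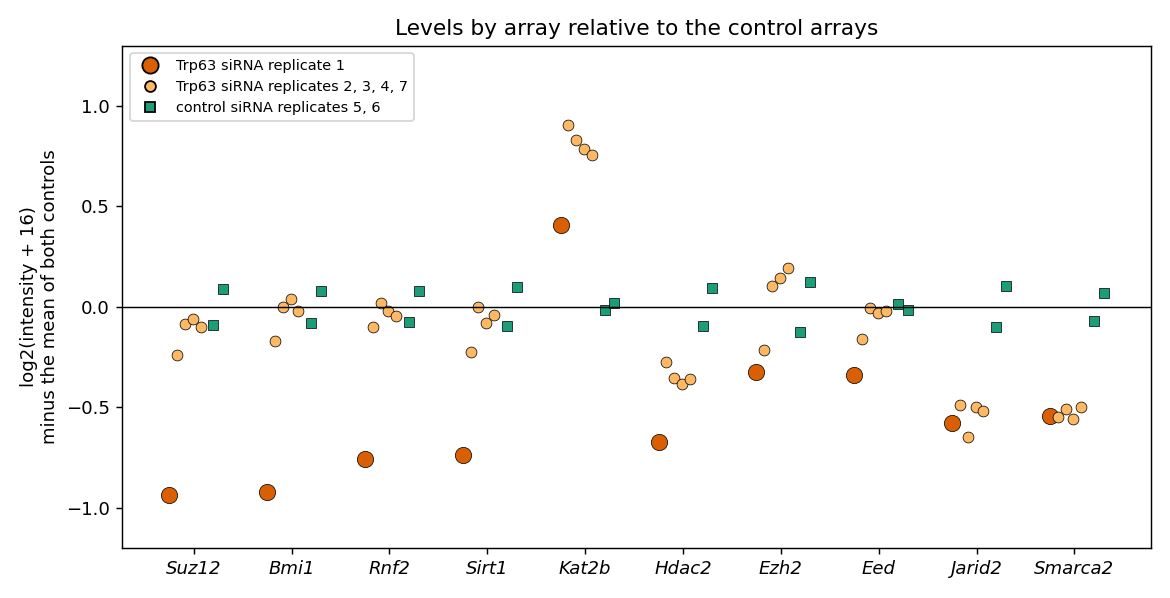
Level of 10 chromatin genes in each array (log2(intensity + 16) minus the mean of both controls). Replicate 1 of the Trp63 siRNA arrays (large points) lies far below the other silenced arrays for Suz12, Bmi1, Rnf2 and Sirt1, and among them for Jarid2 and Smarca2; the genes were chosen after the values were seen.

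Replicate 1 was low in single genes. Suz12, Bmi1, Rnf2, Sirt1 and Kat2b were 0.4 or more below the other silenced arrays in replicate 1 on the log2 scale, 5 of 42 genes, and 5.04% of all genes were. The median of the 42 genes in replicate 1 was 0.05 above the other silenced arrays and that of all genes 0.06. Left out, replicate 1 gave 3 chromatin genes higher and 8 lower, adding Cbx2 above and Mta2 and Smarcb1 below.

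In the NuRD complex, which joins a remodeller with deacetylases, neither measured member was called. Mta2, a subunit that docks the deacetylases, had the smaller p, at 841 ± 86.6 with Trp63 siRNA and 969 ± 6.76 with control siRNA (difference -0.21, limma adjusted p = 0.185). It read 990, 805, 780, 842 and 787 against 964 and 974, so that replicate 1 alone reached the controls, and without it the call was lower (-0.27, adjusted p = 0.00966). Chd4, the ATPase of the complex, differed by 0.02 (adjusted p = 0.892).

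The histone demethylases Kdm1a (LSD1) and Kdm5b differed by 0.07 and -0.09 (adjusted p = 0.535 and 0.727). Kdm1a, with the smaller p, averaged 1255 ± 73.5 with Trp63 siRNA and 1192 ± 18.9 with control siRNA. Kmt5a, the present name of Setd8, methylates lysine 20 of histone H4. It read 1505, 1442, 1476, 1536 and 1353 with Trp63 siRNA, against 1253 and 1337 with control siRNA, a difference of 0.17 that did not pass (adjusted p = 0.120) although the groups did not overlap at either probe set.

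Heterochromatin protein 1 binds methylated lysine 9 of histone H3 and has 3 forms. Cbx5 (HP1 alpha), with the smallest p of the class, averaged 640 ± 82.0 with Trp63 siRNA and 765 ± 43.7 with control siRNA, with every silenced array below both controls (difference -0.26, limma adjusted p = 0.181). At the other 4 probe sets of Cbx5 the groups overlapped, with differences from -0.15 to -0.01. Cbx1 (HP1 beta) differed by 0.02, with an interval of -0.17 to 0.21 (adjusted p = 0.894). Cbx3 (HP1 gamma) was read only by a dim probe set, which differed by 0.05 (adjusted p = 0.604); 4 further probe sets for it carried several gene symbols and were not used.

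Ctcf, the zinc finger protein that sets insulators and chromatin loops, read 512, 511, 520, 521 and 506 with Trp63 siRNA, against 574 and 671 with control siRNA. The silenced arrays were nearly equal, and the spread lay in the controls. Ctcf fell by 0.26 on the log2 scale (SE 0.074, limma adjusted p = 0.0407). Its second probe set overlapped between groups (-0.08, adjusted p = 0.530). The call was lost with median centring (adjusted p = 0.0576) and when silenced replicate 2, 3, 4 or 7 or control replicate 6 was left out (0.0658 to 0.300), 6 of the 19 alternatives and more than for any other of the 8 called genes.

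The high mobility group proteins bend or loosen DNA on nucleosomes, and 2 of the 3 measured here fell. Hmgb2, an abundant DNA-bending protein of dividing cells, read 1046, 809, 1269, 1219 and 1210 with Trp63 siRNA, against 1570 and 1840 with control siRNA. All 5 silenced arrays lay below both controls, with replicates 1 and 2 lowest. The means were 1111 ± 189 and 1705 ± 191 (difference -0.62, SE 0.16, 1.54-fold lower, limma adjusted p = 0.0301). The other Hmgb2 probe set was called too (-0.49, adjusted p = 0.0235). The call of the main probe set was lost without control replicate 5 (0.0857) or 6 (0.211), and narrowly with robust variance estimation (0.0507).

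Hmgn1, which binds inside nucleosomes and loosens compact chromatin, had one of the brightest probe sets of the list, at 5895, 5639, 6013, 6239 and 6154 with Trp63 siRNA against 6746 and 7052 with control siRNA. It fell in every silenced array, but by only 0.20 on the log2 scale (SE 0.043, 1.15-fold, limma adjusted p = 0.0124), and the call was lost without control replicate 6 (0.124). Of its 3 other probe sets 1 was called lower (-0.17, adjusted p = 0.0205). Hmga2, an architectural factor of progenitor cells, differed by 0.09 (adjusted p = 0.568). The histone variant gene H2az1 averaged 2154 ± 217 against 2544 ± 59.7, below both controls in all silenced arrays but not called (-0.24, adjusted p = 0.117).

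Genes of mitosis moved alongside these. Of 26 mitosis genes, 8 were called lower (30.8%, against 8.57% of all genes) and none higher. In 23 of them (88.5%, against 24.0% of all genes) all silenced arrays lay below both controls, and the median difference of the list was -0.42. Their summed intensity was 13833 to 18174 with Trp63 siRNA and 19965 to 23733 with control siRNA. Of 25 DNA replication genes 5 were called lower (20%), with a median difference of -0.16. All silenced arrays lay below both controls in 12 of these 25 genes (48%), the groups overlapped in 13, and 3 differences were positive. In bulk RNA, fewer cells in division and less RNA of a gene per cell cannot be told apart, and the part of this in the values of Hmgb2, Hdac2 or H2az1 was not tested.

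The promoters of Hmgb2 and Hmgn1 are shown because these were the members of 1 class that were called in the same direction. Each runs from 250 bases before to 50 bases after the gene's start (RefSeq, GRCm38.p6), 5′ to 3′ on the gene's strand, at chr8:57511593-57511892 on the plus strand for Hmgb2 and chr16:96127676-96127975 on the minus strand for Hmgn1. Capitals mark TTTGAA or its reverse complement TTCAAA, the core of the CHR element known from cell cycle promoters.
Hmgb2: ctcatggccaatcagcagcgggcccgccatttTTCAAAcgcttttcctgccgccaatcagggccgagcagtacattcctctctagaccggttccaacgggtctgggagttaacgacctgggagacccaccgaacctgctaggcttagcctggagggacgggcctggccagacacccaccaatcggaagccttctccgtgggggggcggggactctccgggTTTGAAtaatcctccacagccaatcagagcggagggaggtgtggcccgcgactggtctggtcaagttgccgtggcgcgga
Hmgn1: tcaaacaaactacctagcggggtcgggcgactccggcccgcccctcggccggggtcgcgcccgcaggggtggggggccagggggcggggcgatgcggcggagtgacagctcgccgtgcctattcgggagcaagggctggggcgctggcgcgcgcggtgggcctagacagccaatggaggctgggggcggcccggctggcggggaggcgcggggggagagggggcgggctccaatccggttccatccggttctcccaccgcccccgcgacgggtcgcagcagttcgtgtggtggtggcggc

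The Hmgb2 window held the TTTGAA motif at 2 places, with first bases at -218 and -30 from the start, and the Hmgn1 window did not hold it. On both strands, 17.9% of 32851 promoters of this length held TTTGAA, and so did 8 of the 54 promoters listed for 38 of the 42 genes. The E2F-type motif TTTCCCGC was in 2 of the 54 and in 1.07% of all promoters, and TTTGGCGC in 3 and in 0.514%, those of Dnmt1, Ezh2 and Cbx3, none of which was called. The p53-family half-site pair (CATG, 6 bases of any kind and CATG again) was in none of the 54 and in 0.712% of all. The letters CCAAT, searched after the sequence was seen, occurred 4 times in the Hmgb2 window and 2 times in that of Hmgn1, and 1.06% of promoters held at least 4. A match is a description of the letters and not of binding.

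The nuclear lamina genes were not called. Lmnb1 (lamin B1), with the smaller p, averaged 446 ± 23.2 with Trp63 siRNA and 507 ± 12.6 with control siRNA (difference -0.18, limma adjusted p = 0.128), with no overlap. Its other probe set overlapped, at 0.02. Lmna (lamins A and C) averaged 4689 ± 203 against 4370 ± 15.7, all silenced arrays above both controls (difference 0.10, adjusted p = 0.178). The other 3 probe sets of Lmna had the opposite sign, at -0.09 to -0.10, so no direction is given for this gene.

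Over all 42 genes, 96 probe sets were read, of which 4 were called higher and 10 lower; of all 22626 probe sets 7.83% were called higher and 8.16% lower. Another probe set was called the same way for Dnmt3a, Jarid2, Hmgb2 and Hmgn1, 4 of the 7 called genes that had several.

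In 4 of the 42 chromatin genes, arrays of high and low melanocyte marker level differed by over 0.2 (log2), in the same direction in both siRNA groups. The controls gave only 1 array at each level. The share of all genes past this cut was not computed, so the count of 4 has no background beside it. The arrays fell into silenced replicates 1 and 2 with control 5 at a high melanocyte level and silenced replicates 3, 4 and 7 with control 6 at a low one, a split made at the largest gap in these values. Ezh2 read 455 and 491 in the high silenced arrays, 617, 633 and 657 in the low ones, and 524 in the high against 626 in the low control. Kdm5b read 877 and 942 in the high silenced arrays, 670, 685 and 709 in the low ones, and 909 against 736 in the controls. Ezh2 was thus lower, and Kdm5b higher, where melanocyte markers were high, in both siRNA groups. Other lists moved with the same split. The mean of the mitosis list, on the log2 scale against both controls, was -0.62 and -0.63 in the high silenced arrays, -0.36, -0.29 and -0.28 in the low ones, and -0.13 in the high against 0.13 in the low control. The fibroblast list was 0.28 and 0.24 in the high silenced arrays, 0.10, 0.12 and 0.15 in the low ones, and 0.09 against -0.09 in the controls. The part of any of these lists in the levels of the 4 genes was not tested. Hmgb2 (-0.42 in silenced arrays and -0.23 in controls, high minus low) and Ring1 (0.24 and 0.23) were the other two genes past 0.2 in the same direction in both groups, and of the 4 genes Hmgb2 was also called lower with Trp63 siRNA. Between the melanocyte levels 22 of the 42 genes (52.4%) had silenced arrays that did not overlap, and 41.3% of all genes did.

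The sign of a called gene's difference is fixed within the melanocyte levels, because no called gene's groups overlap, so only its size is given there, against 1 control array at each level. Within the high and the low level, Kat2b differed by 0.68 and 0.77, Dnmt3a by 0.36 and 0.29, Jarid2 by -0.43 and -0.66, and Smarca2 by -0.48 and -0.59. Hmgb2 differed by -0.76 and -0.57, Hdac2 by -0.38 and -0.46, Ctcf by -0.16 and -0.37, and Hmgn1 by -0.23 and -0.20. With the split as a block in the fit, 3 genes were called higher and 8 lower, the added ones being Cbx2, Cbx5 and H2az1. The summed melanocyte level overlapped between the siRNA groups, as given above.

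**Figure D4:**
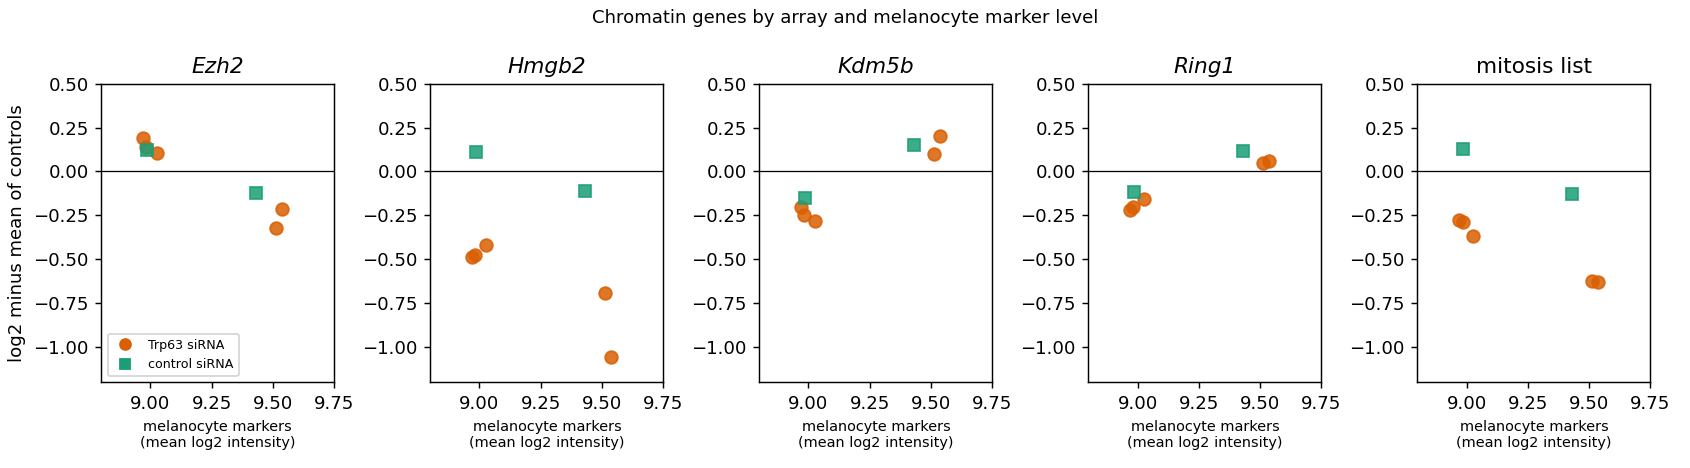
Level of Ezh2, Hmgb2, Kdm5b, Ring1 and the mean of the mitosis list (log2, minus the mean of both controls) against the mean log2 intensity of 9 melanocyte markers in each array. Trp63 siRNA (circles) and control siRNA (squares) lie near each other for Ezh2, Kdm5b and Ring1 at a like marker level and are apart for Hmgb2 and the mitosis list; the genes were chosen after the values were seen.

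A wider list held other subunits and relatives of these genes, 138 measured of 187. Of them 5 were called higher (3.62%, against 8.03% of all genes) and 11 lower (7.97%, against 8.57%), with a median difference of -0.08. With 11.6% called, against 16.6% of all genes, the wider list had no more calls than the background, and the genes below are given as single values. Of 10 Polycomb repressive complex 1 relatives 2 fell and 2 rose. Scmh1, a sex comb protein, fell (260 ± 26.0 with Trp63 siRNA against 428 ± 68.8 with control siRNA, difference -0.68, SE 0.11, limma adjusted p = 0.00381), as did the demethylase Kdm2b (-0.30, 0.0277), while the reader Cbx6 (0.40, 0.0151) and the polyhomeotic gene Phc1 (0.30, 0.0169) rose. Rbbp4, a histone-binding subunit that Polycomb repressive complex 2 shares with NuRD, rose by 0.22 (adjusted p = 0.0132). Of 7 further genes linked with DNA methylation, 2 fell, the reader Mbd2 (-0.32) and the glycosylase Mbd4 (-0.23), with limma adjusted p = 0.00927 and 0.00698, and the other 5 were not called.

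Among the demethylases Phf8 rose (0.32, adjusted p = 0.0134) and Jmjd6 and Kdm3a fell (-0.33 and -0.29, 0.0106 and 0.0156). The histone methyltransferase class held 15 measured relatives, among them the partner subunits Ash2l, Wdr5 and Dpy30. The enzymes Suv39h2, Ehmt2, Setdb1, Kmt5b and Kmt5c were counted with the heterochromatin genes instead. Of the 15, 3 fell and none rose: the arginine enzymes Prmt1 (-0.31, adjusted p = 0.00768) and Prmt6 (-0.33, 0.0227) and the lysine enzyme Kmt2a (-0.24, 0.0146). Sun2, which ties the lamina to the cytoskeleton, gave the largest rise of the wider list, at 896 ± 99.5 with Trp63 siRNA and 608 ± 29.7 with control siRNA (0.54, SE 0.11, adjusted p = 0.00889). Of the other remodellers the dim Smarca1 and Chd6 fell (-0.22 and -0.19, adjusted p = 0.00353 and 0.0404). No further gene was called among 15 BAF, 10 deacetylase or corepressor and 10 acetyltransferase or reader genes. Nor was any among 8 cohesin, 5 NuRD, 6 heterochromatin and 11 high mobility group or histone genes. All 8 cohesin and insulator relatives had negative differences, none of which passed. Negative differences were also common elsewhere, in 98 of all 138 relatives, and the median over all genes was -0.04.

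Each of these 16 calls but Smarca1 was lost with at least 1 control array left out.

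**Figure D5:**
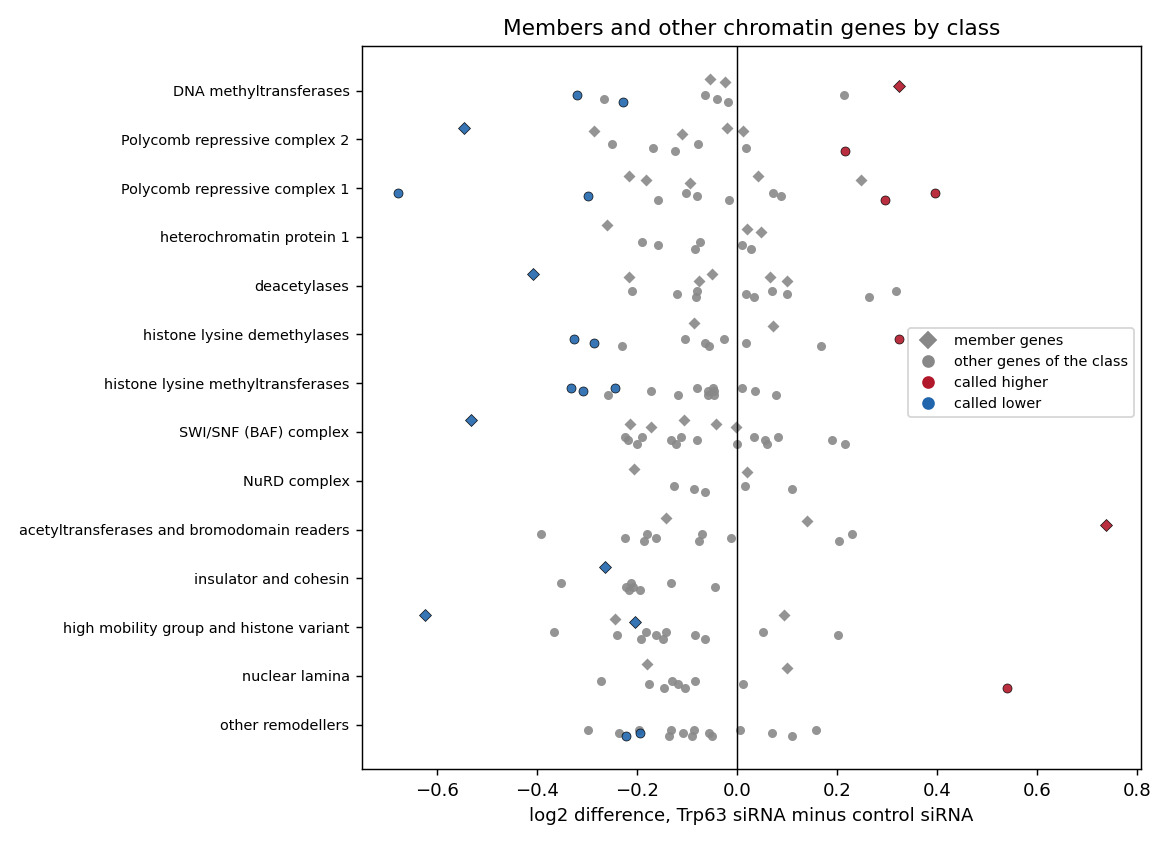
Difference between groups (log2, Trp63 siRNA minus control siRNA) for the 42 chromatin genes (diamonds) and 138 relatives (circles) by class, each point a gene's brightest probe set, with arginine enzymes drawn among the methyltransferases. Red marks genes called higher and blue genes called lower; most points lie within 0.3 of 0, and Kat2b and Sun2 lie farthest to the right.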

How the data were processed

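The authors deposited 1 intensity per probe set for each of 7 Affymetrix arrays hybridised with biotin-labelled RNA, per the labels; the sources used here do not state how they summarised or normalised these intensities. The intensities were used as deposited and became log2(intensity + 16), which understates the change of dim genes. Of 22690 probe sets, 64 platform controls were left out. Probe sets were named from the platform annotation, in which 20380 carried 1 symbol and 691 several.

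Groups were compared in R 4.3.3 by limma (version 3.58.1, a linear model with moderated variances that follow the mean level). P-values were adjusted by Benjamini and Hochberg's method over 22626 probe sets, at a threshold of 0.05. RNA quality was compared by exact permutation. The procedure was tested on simulated data of the same design, with noise drawn independently for each probe set and array. It recovered 35 of 50 probe sets with a log2 change of 0.5, 95 of 100 with 1 and 48 of 50 with 2. Of 185 calls 7 were false. Changes under 0.5, the size of most differences given here, were not simulated. Nor were patterns shared by many probe sets, such as that of replicate 1 or the melanocyte split. The simulation therefore gives no share of false calls for the real arrays.

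The members and the lists were chosen with earlier results of these data known, as were the classes. Every member was named, with its arrays where it passed or had the smallest p of a class without a call; from the wider list up to 3 called genes per class with the smallest p were named, and 1 more in Polycomb repressive complex 1. The genes in the array and melanocyte comparisons were named after their values were seen. Promoters came from RefSeq. Alternatives covered normalisation, a pseudocount of 1 or 64, dropping probe sets under the 25th or 50th percentile of level, the variance model, array weights, the probe set of a gene, blocks, and each array left out. Figures used matplotlib 3.10.9 in Python 3.11.15.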

Additional observations from a re-analysis of the deposited data

Results flagged for a closer look

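In 6 chromatin genes, 1 of the 5 Trp63 siRNA arrays lay far from the other 4 by Dixon's test at the 95% level, which flags about 1 in 20 groups by chance. That is 14.3% of the 42 genes, and 9.73% of all 12393 genes had such an array. Replicate 1 was the lowest for Suz12 (331, others 546 to 621), Bmi1 (254, others 438 to 510), Rnf2 (379, others 607 to 662) and Hdac2 (658, others 807 to 872), and the highest for Lmna (5046, others 4555 to 4650). Dnmt3a was lowest in replicate 3 (332, others 360 to 370). Of these genes only Dnmt3a and Hdac2 were called with all arrays. Without its flagged replicate 1, Hdac2 was called with a smaller adjusted p (limma, 0.00673). Without its flagged replicate 3, Dnmt3a was called with a limma adjusted p of 0.0114, against 0.0103 with all arrays.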

How the results depend on the processing

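Of 793 values of the 42 chromatin genes under alternatives, 31 in 16 genes changed sign, all of uncalled genes whose reported difference was at most 0.10 in size. Calls were kept in 135 cases and lost in 17, and 11 values of 5 uncalled genes (Cbx2, Cbx5, H2az1, Mta2 and Smarcb1) passed. Leaving out 1 array gave 1 to 3 chromatin genes higher and 2 to 8 lower (2 and 6 with all arrays), 1 to 7 of the wider list higher and 2 to 26 lower (5 and 11), and 1374 to 5502 called probe sets (3618). With a control left out, the lone control is assumed to vary like the silenced arrays. The chromatin genes gave 1 higher and 4 lower without control replicate 5 and 1 higher and 2 lower without control replicate 6. Without silenced replicate 1, the wider list gave 7 higher and 26 lower. Array weights gave 19 lower in the wider list. The melanocyte split as a block gave 8 higher and 21 lower there and 5458 called probe sets. Beyond fewer arrays, the cause was not tested. No paired analysis was possible because the 2 groups share no replicate number.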
